A study of Mus musculus with 2 samples.

Results

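Müller glia with high immediate-early expression are described here from single-cell RNA counts of the mouse retina. The cells were chosen in 2 steps. A cell entered the Müller gate with at least 800 UMIs (unique molecular identifiers, each standing for 1 captured transcript), at most 20% of them mitochondrial, at least 0.5% from Glul, Rlbp1 and Slc1a3 together, and at most 1 from Rpe65, a pigment epithelium gene. Gate cells of both libraries were then divided at the median share of UMIs from 7 immediate-early genes, Fos, Fosb, Jun, Junb, Ier2, Egr1 and Cyr61. The 1291 cells at or above this median, of 2581 gate cells and 19562 cells in all, are the high group; the other 1290 gate cells are the low group. The division fell at 0.428% of UMIs. The high group held 621 control cells and 670 cells from diabetic retinas.

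The retinas came from C57BL/6 mice, given in the treatment protocol as C57BL/6J males. The treated group, called STZ here, had received streptozotocin, a toxin of the insulin-producing beta cells, by intraperitoneal injection of 55 mg/kg at 3 to 5 weeks of age. Diabetes was defined by blood glucose above 300.0 mg/dL, and the animals kept a high glucose for 25 weeks. The control group is labelled untreated, and no vehicle or age is given for it. Cells of 3 retinas were pooled into 1 library per group, so no cell can be assigned to an animal. With 1 library a group there is no test between them, and treatment, animals, dissociation and library cannot be told apart. Every interval below is a 95% interval for counting error alone; it treats UMIs as independent and is too narrow where few cells hold most of the UMIs of a gene.

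Müller glia are the radial glia of the retina. They clear glutamate and convert it to glutamine with the enzyme encoded by Glul, recycle retinoids with the help of the binding protein encoded by Rlbp1, and move potassium and water through the channels encoded by Kcnj10 and Aqp4. Immediate-early genes are transcribed within minutes of a stimulus without new protein synthesis, mostly through the transcription factors SRF and CREB, which act downstream of MAP kinases and cAMP. Many encode transcription factors, such as the FOS and JUN proteins that pair to form AP-1, and others shut the response down again: dual-specificity phosphatases switch off MAP kinases, SOCS proteins restrain JAK-STAT signalling, and the ZFP36 family destroys short-lived mRNAs. The same genes are switched on when tissue is enzymatically dissociated, and the data hold no undissociated tissue to compare with. The part of dissociation in the values below was not tested.

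The gate cells carried the RNA of Müller glia. Summed over 13 marker genes, 3 of which chose the cells, the high group had a median of 4.35% of UMIs per cell in control and 4.09% in STZ, against 0.0429% and 0.0638% in cells outside the gate. Aqp4, which took no part in the choice, was at 1062 CPM (the gene's UMIs per 1000000 UMIs, summed over a group of cells) in control and 1229 in STZ high cells, and at 21.7 outside the gate. The division is a point on a scale, with cells on both sides of it, and the high group is a range of that scale and not a cell type. Within 10% of the division lay 10 control cells on the inner and 9 on the outer side, 1.49% of the control gate cells, and 26 and 22 STZ cells, 3.68%. The lowest share in the high group was 0.428%, and the highest in the low group was 0.427%. The high cells were deeper than the low cells, with a median of 6657 against 4973 UMIs in control and 5786 against 3286 in STZ. Their mitochondrial share was 10.9% against 7.39% in control and 11.3% against 10.1% in STZ. The libraries shared 21 cell barcodes, and 1 high cell carried one of them.

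RNA of other retinal cell types was present and differed between the libraries. The median share of 9 rod markers per cell was 0.0782% in control and 0.166% in STZ high cells, and 0.105% and 0.261% in the low cells. Summed rod markers were at 1472 CPM in control and 2742 in STZ high cells, against 12119.8 and 10376 outside the gate. Bipolar markers were at 234 and 640.0 CPM in the high cells, against 10947 and 9237 outside the gate. Microglial markers came to 2.78 and 13.3 CPM, with 4 of 7 at 0 in control, and the 3 leukocyte markers in the table were at 0 in both. The 3 astrocyte markers came to 1.77 CPM in control and 26.3 in STZ high cells; Pax2 was at 0 in both libraries, and Gfap, which Müller glia also express when reactive, made up most of the STZ sum. The part of this RNA in the differences below was not tested. The results were recomputed without the 10% of gate cells of each library richest in markers of other classes. Rod and astrocyte markers were not part of that score, so cells were not removed for their rod RNA.

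The size of the high group was nearly the same in the libraries, which follows in part from dividing at a pooled median. It took 48.7% of the control gate cells (45.9 to 51.5, Clopper-Pearson) and 51.3% of the STZ gate cells (48.6 to 54.0). This order turned when the cells richest in markers of other classes were left out, to 50.6% and 49.4%. With each cell thinned to 800 UMIs it was 52.7% and 56.9%. The spread of the share above the division differed more than the size. In control, the median high cell took 1.69% of its UMIs from the 7 genes and the ninetieth percentile 2.42%; in STZ these were 1.11% and 1.90%. Cells at or above 2% made up 14.7% of the control gate cells (188 cells) and 3.98% of the STZ gate cells (52 cells). The band from the division to 1% held 9.96% of control and 21.9% of STZ gate cells. The STZ cells in that band were shallow, with a median of 2263 UMIs against 6261 in control, and held a median of 0.448% rod markers against 0.0784%. From 1% to 2% the libraries were alike in number and depth, with 306 control cells at a median of 6893 UMIs and 332 STZ cells at 6411. Rod markers still differed there, at a median of 0.0773% in control and 0.134% in STZ, and 1471 and 2478 CPM when summed. Comparisons over the same range of the share therefore use this band, a choice made after the data were seen. The share is not matched inside the band. From 1% to 1.1% lay 2.35% of control and 3.60% of STZ gate cells, and from 1.9% to 2% 2.75% and 1.07%. A gene that climbs with the share can thus still differ there.

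**Figure D1:**
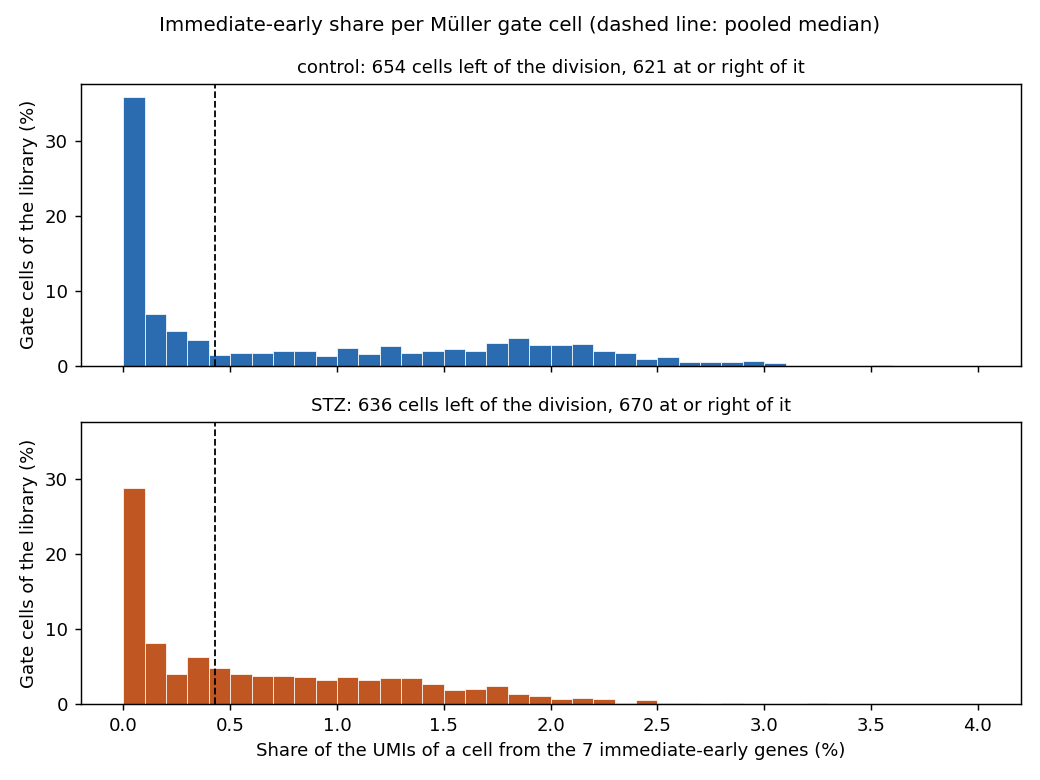
Share of the UMIs of each Müller gate cell that came from the 7 immediate-early genes (x axis, in 0.1% steps) against the percentage of gate cells of the library (y axis), control above and STZ below; the dashed line is the pooled median of 0.428%. Both libraries have a peak under 0.1%. Control is low beside the division, at 1.41% of cells from 0.4% to 0.5%, and has a second rise that reaches 3.69% from 1.8% to 1.9%, while STZ declines more evenly; control has 14.7% of its gate cells at 2% or more against 3.98% in STZ.

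The 7 genes that chose the cells encode 4 AP-1 proteins (Fos, Fosb, Jun, Junb), the zinc-finger transcription factor EGR1, the nuclear protein IER2 and the secreted matricellular protein CYR61, also called CCN1. Their levels in high and low cells only describe the choice. Jun was the most abundant of them in both libraries, at 4442 CPM in control and 2955 in STZ high cells, and at 329 and 269 in the low cells. Fos followed at 3964 and 2857 CPM, Junb at 2087 and 1995, and Fosb at 1702 and 1234. Cyr61 was at 1444 and 1006 CPM, Ier2 at 1429 and 1627, and Egr1 at 1362 and 1088. These values compare UMIs of 3' tags, in which gene length does not enter. Thus Jun was 1.503-fold (1.47 to 1.54) lower in STZ, Fos, Fosb, Egr1 and Cyr61 were lower by less than 1.5-fold, Junb differed by 1.05-fold (1.01 to 1.08), and Ier2 was 1.14-fold (1.10 to 1.18) higher. The mix of the 7 genes differed with the level. Ier2 made up 8.69% of their UMIs in control (8.48 to 8.91) and 12.8% in STZ (12.4 to 13.1), Junb 12.7% and 15.6%, and Jun 27% and 23.2%. These shares add up to a fixed total, and in the band from 1% to 2% the sum of the 7 genes is held in a narrow range, so that a higher level of some goes with a lower level of others; the values only describe the mix. In that band Ier2 was 1.34-fold (1.27 to 1.41) higher and Junb 1.16-fold (1.11 to 1.21) higher in STZ, while Jun was 1.28-fold (1.24 to 1.33) and Fos 1.18-fold (1.14 to 1.22) lower.

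The number of the 7 genes found in a cell describes the choice, since the cells were divided on their sum. The median high cell had a UMI of 7 of the 7 genes in each library, and the median low cell of 1. With each cell thinned to 800 UMIs the median was 5 genes in control and 4 in STZ high cells, and 0 in the low cells of both. Fos had a UMI in 99.4% of control and 96.7% of STZ high cells (91.5% and 84.2% when thinned), against 34.2% and 36.1% of cells outside the gate, whose median depths were 4261 and 3378 UMIs. Cyr61 had a UMI in 89.5% and 79.0% of high cells, which were chosen with it, in 24.0% and 22.8% of low cells, and in 3.78% and 5.49% of cells outside the gate. Fos and Jun UMIs were spread widely over the high cells, the richest 5% of which held 12.2% and 11.6% of them in control.

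The files give gene symbols, placed here on the mm10 genome with the GENCODE M21 annotation. Fos lies at chr12:85473890-85477273, Jun at chr4:95049034-95052222, Junb at chr8:84974484-84978718, Fosb at chr7:19302696-19310051 and Ier2 at chr8:84661331-84662852. Promoters are shown for Fos, which chose the cells, and for 3 genes that did not and were among the 10 with the largest difference between high and low cells: Dusp1, Btg2 and Zfp36. Each line gives the 250 bases before the RefSeq start of the gene on GRCm38.p6, read 5′ to 3′ on the strand of the gene. Capitals mark matches on either strand to the cAMP response element TGACGTCA or its core TGACG, to the EGR motif GCGGGGGCG, or to the CArG box, the SRF motif. The windows lie at chr12:85473640-85473889, plus strand (Fos), chr17:26508473-26508722, minus strand (Dusp1), chr1:134079156-134079405, minus strand (Btg2) and chr7:28379229-28379478, minus strand (Zfp36).
Fos: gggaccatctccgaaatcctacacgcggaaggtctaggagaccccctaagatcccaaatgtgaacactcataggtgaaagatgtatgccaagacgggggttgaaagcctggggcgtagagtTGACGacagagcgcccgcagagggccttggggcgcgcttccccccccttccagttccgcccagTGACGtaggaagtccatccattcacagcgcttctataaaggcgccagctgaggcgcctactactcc
Dusp1: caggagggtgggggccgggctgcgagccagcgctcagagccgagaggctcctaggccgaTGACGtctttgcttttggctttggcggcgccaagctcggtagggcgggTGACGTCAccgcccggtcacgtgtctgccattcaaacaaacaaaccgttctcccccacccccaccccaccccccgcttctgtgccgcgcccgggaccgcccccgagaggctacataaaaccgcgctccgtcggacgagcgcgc
Btg2: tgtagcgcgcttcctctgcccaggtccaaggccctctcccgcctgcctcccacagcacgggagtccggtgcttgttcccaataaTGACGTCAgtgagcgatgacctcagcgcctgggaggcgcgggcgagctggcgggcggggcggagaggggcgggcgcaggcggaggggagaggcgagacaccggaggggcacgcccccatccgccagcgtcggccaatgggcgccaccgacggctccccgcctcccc
Zfp36: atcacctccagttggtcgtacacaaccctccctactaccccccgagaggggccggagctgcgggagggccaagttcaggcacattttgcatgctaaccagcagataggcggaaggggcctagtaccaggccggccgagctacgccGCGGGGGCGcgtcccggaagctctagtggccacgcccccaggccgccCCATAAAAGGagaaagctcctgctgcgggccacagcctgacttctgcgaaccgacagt
Fos holds 2 copies of the core element, at 129 and 66 bases before the start. Dusp1 and Btg2 hold the full palindrome at 143 and 166 bases before it, and Zfp36 holds a CArG box at 58 and an EGR motif at 105. Of the 5 rule genes with a sequence in the table, 4 hold the core element, which overlaps the full one where both match. Of all 32817 promoters of this length, 17.7% hold the core. Within the 250 bases, the full element and the CArG box were each found in 0 of these 5 rule genes, and the EGR motif in 1. Bases further upstream, and the promoters of Ier2 and Egr1, were not searched. Of the 10 genes named below as higher in the high group, 9 had a sequence. The core was found in 5 of these 9, and the full element in 4, against 1.55% of all promoters for the full element. A CArG box was found in 1 of the 9, against 1.47% of all promoters, and an EGR motif in 3, against 2.57%. The AP-1 motif TGANTCA had no match in these 14 promoters and is in 6.75% of all. A match is a description of letters and not a site shown to be bound.

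Other genes of the early response were higher in the high group in both libraries. A gene is called higher or lower at 1.5-fold or more, among genes with at least 50 CPM and 50 UMIs in the groups compared, leaving out the genes of the rule and the gate. Of 3281 genes measured in control, 10.5% passed in either direction, 2.93% higher and 7.53% lower in the high group. In STZ 5.34% of 3372 passed, 2.11% higher and 3.23% lower. The high and low cells were divided by a sum of early genes, so these counts describe the division and are not support for it; a gene expressed only in the high cells could pass the filter only by differing. Among the 3092 genes measured in both libraries, 57 were higher in both, which is 66.3% of those higher in control and 86.4% of those higher in STZ. Lower in both were 39, or 17.3% and 52.0%, and 0 genes passed in opposite directions. The median of all genes lay at -0.17 on the log2 scale in control and -0.09 in STZ. With the UMIs of the rule and mitochondrial genes left out of the denominator, it lay at -0.10 in control, and the control counts moved from 96 higher and 247 lower to 118 and 178.

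Transcription factors outside the rule were among the genes with the largest difference. Of 25 early transcription factors in a list, 11 were measured in control and 10 were higher, and 10 were measured in STZ and 9 were higher. Klf4, a Krüppel-like factor of stress and differentiation, was at 379 CPM in the high and 11.1 in the low control cells, 34.2-fold (24.4 to 49.6), and at 213 and 14.6 in STZ, 14.6-fold (10.3 to 21.6). Its relative Klf6 was 11.6-fold (9.29 to 14.8) higher in control and 6.63-fold (5.06 to 8.82) in STZ. The C/EBP factors of the acute-phase response moved with them: Cebpb was 4.97-fold (3.99 to 6.24) and 3.88-fold (3.14 to 4.82) higher, and Cebpd 4.80-fold (4.41 to 5.24) and 3.68-fold (3.39 to 4.01). Hes1, a repressor downstream of Notch, was at 1870.0 against 610.0 CPM in control and 1578 against 501 in STZ. Of the AP-1 list, Jund was 2.96-fold (2.81 to 3.13) higher in control and 2.98-fold (2.80 to 3.18) in STZ from a high level in the low cells, 543 and 556 CPM. Id1, Id2 and Id3, inhibitors of basic helix-loop-helix factors, were higher in both libraries, by between 1.55-fold and 2.84-fold. Klf9, a glucocorticoid-responsive member of the family, did not reach 1.5-fold in either, at 1.29-fold (1.14 to 1.45) and 1.16-fold (1.02 to 1.31).

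Genes that end or limit the response were among those with the largest ratios. Zfp36, whose product binds AU-rich elements and speeds mRNA decay, was at 432 against 17.6 CPM in control, 24.6-fold (18.7 to 32.8), and 593 against 37.4 in STZ, 15.9-fold (12.7 to 20.04). Socs3, the feedback inhibitor of JAK-STAT signalling, was 36.2-fold (22.5 to 62.4) higher in control, where the low cells held 17 UMIs, and 12.8-fold (9.37 to 17.9) in STZ. Dusp1, a MAP kinase phosphatase, was 13.0-fold (11.5 to 14.7) and 13.7-fold (11.6 to 16.4) higher, and Dusp6, specific for ERK, 5.19-fold (4.38 to 6.20) and 3.13-fold (2.52 to 3.92). Errfi1, which inhibits EGF receptors, was 2.96-fold (2.33 to 3.79) higher in control, at 83.8 against 28.3 CPM, and under the minimum level in STZ, at 42.1 against 28.3. Spry2 and Spred1 of the same list were under 1.5-fold, with Spry2 at 1.46-fold (1.28 to 1.67) and 1.44-fold (1.23 to 1.68). The decay factors Zfp36l1 and Zfp36l2 were also higher in both, by between 1.88-fold and 2.74-fold. Nfkbiz, a nuclear regulator of NF-kappaB, was 4.55-fold (3.64 to 5.74) and 5.07-fold (3.76 to 6.96) higher.

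Of 20 other early response genes, 10 of 11 measured were higher in control and 9 of 10 in STZ, with Ifrd1 the exception in each. The antiproliferative gene Btg2 was the most abundant, at 2550.4 against 152 CPM in control, 16.8-fold (15.3 to 18.4), and 2075 against 196 in STZ, 10.6-fold (9.58 to 11.7). Ppp1r15a, which restores translation after stress, was 6.98-fold (5.57 to 8.86) and 4.46-fold (3.55 to 5.66) higher, and Gadd45g, a stress sensor, 7.73-fold (5.62 to 10.9) and 3.63-fold (2.94 to 4.52). The small GTPase gene Rhob was 7.77-fold (6.21 to 9.83) and 3.30-fold (2.60 to 4.23) higher. The survival gene Mcl1 was 2.33-fold (2.04 to 2.68) and 2.64-fold (2.28 to 3.08) higher. The other genes named by their rank were the kinase gene Pim1, 5.37-fold (4.06 to 7.22) and 3.88-fold (2.89 to 5.30), and the small GTPase gene Arl4d, 6.37-fold (4.58 to 9.08) and 3.90-fold (3.14 to 4.89). Summed over 80 early genes outside the rule, the share of UMIs per cell had a median of 1.75% in control and 1.40% in STZ high cells and 0.48% in the low cells of both. Across the high cells this sum followed the share of the 7 genes, with a Pearson r of 0.78 over 621 control cells and 0.70 over 670 STZ cells; both measures come from the same UMIs of a cell.

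**Figure D2:**
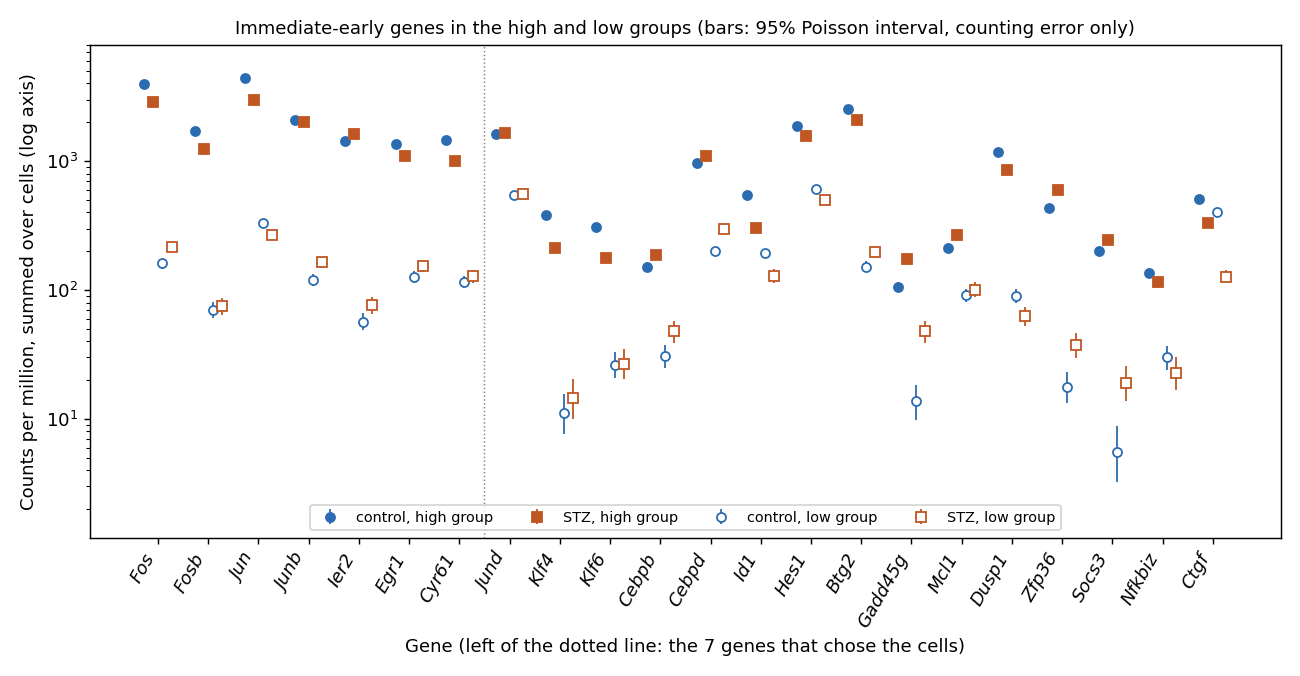
CPM (log axis) of the 7 genes of the rule, left of the dotted line, and of 15 others, right of it, for high cells (filled) and low cells (open) of control (circles) and STZ (squares); bars are 95% Poisson intervals. Each of the 22 genes is higher in the high group of both libraries, with Ctgf in control the closest pair.

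Targets of SRF and YAP, which respond to actin tension and cell shape, were mixed. Of 22 listed genes 5 were measured in each library, and 3 were higher in control and 4 in STZ. The actin genes were at 1837 against 966 CPM in control and 2409 against 1386 in STZ for Actb, and 2.08-fold (1.94 to 2.24) and 1.58-fold (1.47 to 1.69) higher for Actg1. Amotl2, a YAP target, was 2.37-fold (1.92 to 2.94) and 2.12-fold (1.67 to 2.71) higher, though in STZ at 0.42 on the log2 scale when thinned. Ctgf, which encodes the matricellular relative of CYR61, was 1.26-fold (1.17 to 1.36) in control, under 1.5-fold, and 2.62-fold (2.29 to 3.00) in STZ. Its low STZ cells stood apart at 127 CPM, against 399.8 in the low control cells and 504 and 333 in the high cells. Hes5, another Notch target, had the same arrangement, with 178 CPM in the low STZ cells and 446, 608 and 534 in the low control, high control and high STZ cells.

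The Müller programme itself was close to level between high and low cells. Of 19 transport and metabolism genes measured, 2 were lower in the high group in control and 0 passed in STZ. The 2 were Abca8a, an ABC transporter gene, at 815 against 1448 CPM, and Acsl3, which activates fatty acids, at 1896 against 3131; in STZ they were 1.24-fold (1.17 to 1.32) and 1.29-fold (1.26 to 1.33) lower. Acsl3 in control was -0.58 on the log2 scale, under 1.5-fold, with at most 10% mitochondrial UMIs. Apoe, the most abundant gene of the list, was 1.15-fold (1.14 to 1.17) and 1.13-fold (1.12 to 1.15) lower. Among 17 transcription factors of Müller glia and retinal progenitors, Sox9 and Sox4 were higher in both. Sox9, which specifies Müller glia, was at 1068 against 505 CPM in control and 828 against 475 in STZ, and Sox4 was 2.70-fold (2.38 to 3.07) and 1.98-fold (1.68 to 2.34) higher. Lhx2, needed to keep Müller glia quiescent, was at 495, 523, 465 and 446 CPM in high control, low control, high STZ and low STZ cells.

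Stress genes were higher only in part: of the heat shock list 2 of 12 measured genes were higher in control and 0 of 10 in STZ. Dnajb1, a heat shock co-chaperone gene, was 6.71-fold (5.11 to 8.97) higher in control, and in STZ, under the minimum level, at 61.4 against 16.4 CPM, while Hspa8 was at 1.14-fold (1.09 to 1.2) and 1.14-fold (1.06 to 1.21). Atf4, the factor of the integrated stress response, was 1.86-fold (1.62 to 2.13) and 1.51-fold (1.27 to 1.80) higher, and its target Ddit3 1.67-fold (1.44 to 1.94) and 1.57-fold (1.31 to 1.90). Thinned to 800 UMIs, both stood under 1.5-fold in both libraries. The chaperone Hspa5, the marker of endoplasmic reticulum stress, was 1.19-fold (1.09 to 1.30) and 1.15-fold (1.02 to 1.29) lower. Ribosomal protein genes had a median log2 ratio of 0.36 in control and 0.15 in STZ over 79 genes, and the 13 mitochondrially encoded genes 0.47 and 0.16.

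Genes lower in the high group had small ratios. Gpld1 was at 124 against 241 CPM in control and 147 against 228 in STZ, and Prpf4b, a kinase gene of pre-mRNA splicing, at 136 against 240.5 and 134 against 212. The other 8 named by rank were Abca6, Rnpc3, Dnajc1, Cspp1, Pawr, Fubp1, Tm9sf4 and Asah1, between 1.54-fold and 1.95-fold lower. Of the 10, Abca6 and Gpld1 kept 1.5-fold in both libraries under every alternative tried, and each of the other 8 was under it in at least 1 library under at least 1 alternative. Asah1 in STZ was at -0.04 on the log2 scale when thinned to 800 UMIs, against -0.62. Rod markers were lower in the high group too: 4 of 7 measured in control and 9 of 9 in STZ.

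**Figure D3:**
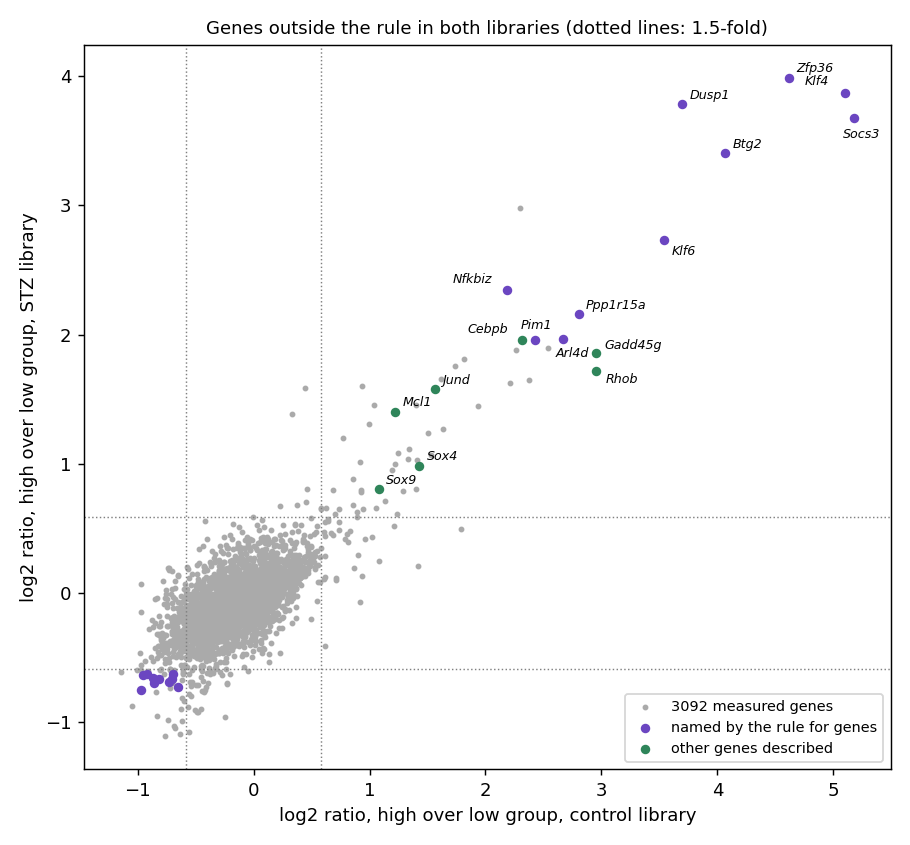
Log2 ratio of the high over the low group in control (x axis) and STZ (y axis) for the 3092 genes measured in both, with the genes named by rank in purple, other described genes in green and dotted lines at 1.5-fold. The early genes form the upper right arm, and no gene lies beyond 1.5-fold in opposite directions.

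The levels of Btg2, Klf4, Zfp36 and Socs3 climbed with the share of the 7 genes over its 5 ranges in both libraries. Btg2 in control was at 84.6 CPM in cells under 0.1%, 289.6 from there to the division, 978 up to 1%, 2499 up to 2% and 3611 at 2% or more. The STZ values over the same ranges were 98.2, 368, 1315, 2277 and 3544 CPM, less than 1.5-fold from control in each range. Klf4 reached 565 CPM in control and 375 in STZ at 2% or more, and was at 141 and 150.2 between the division and 1%. Zfp36 was higher in STZ in each range, with 100.1 CPM in control and 357 in STZ between the division and 1%, and 654 and 941 at 2% or more. Abca8a in control declined over the ranges, from 1479 to 694 CPM. Glul stayed between 9623 and 11054 CPM over the 5 ranges in control and between 9374 and 12404 in STZ.

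**Figure D4:**
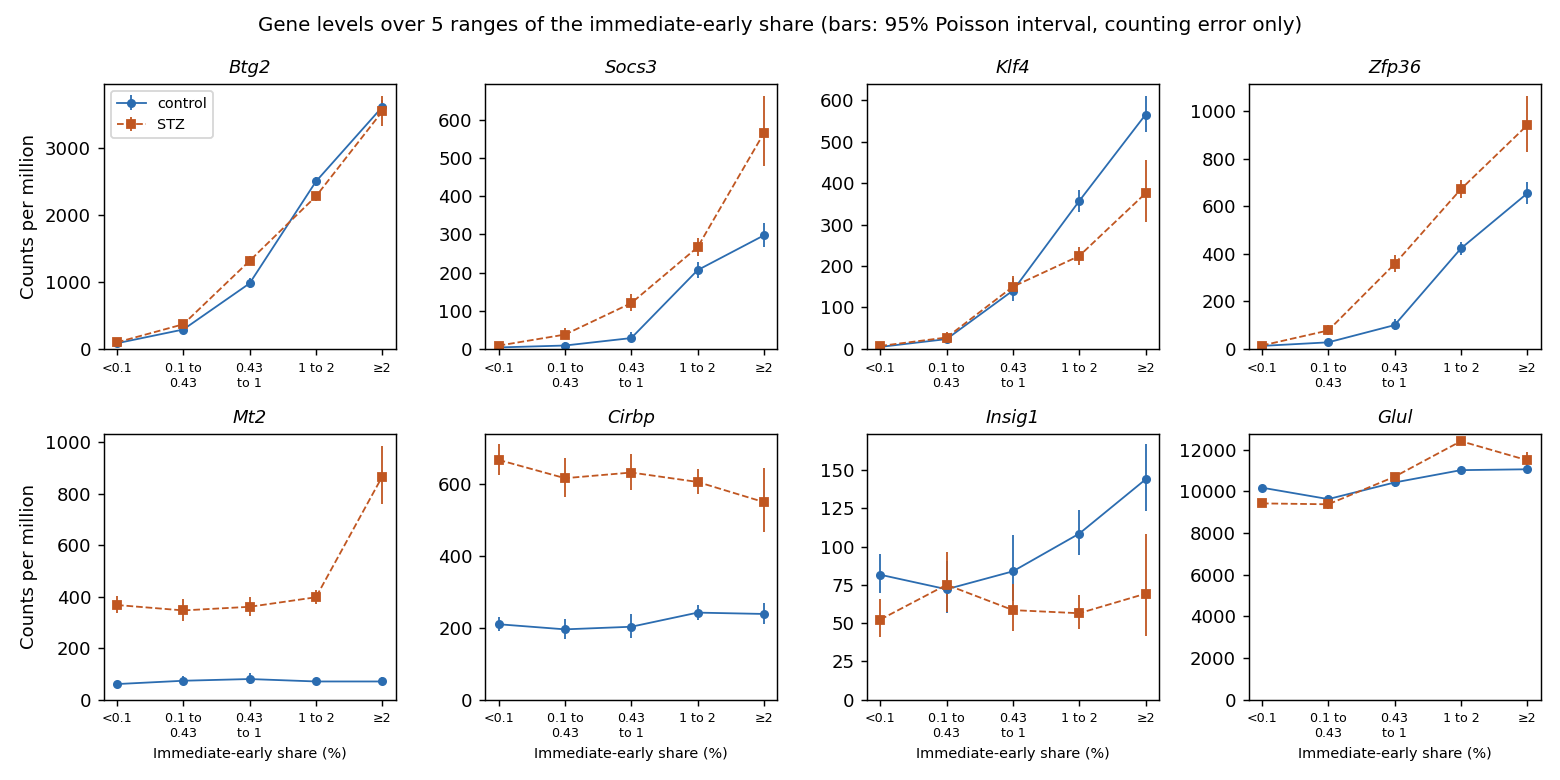
CPM of 8 genes (y axis, from 0) over 5 ranges of the share of UMIs from the 7 genes (x axis) for control (circles) and STZ (squares), with 95% Poisson intervals. Btg2, Socs3, Klf4 and Zfp36 climb with the share, Mt2 and Cirbp are higher in STZ in every range, and Insig1 is lower in STZ in every range but the second, with intervals that overlap in the third.

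Between the libraries, the high cells of diabetic retinas had more metallothionein and cold-inducible RNA, less RNA of cholesterol synthesis and of Vegfa. Of 3175 genes measured, 6.39% passed 1.5-fold, 4.25% higher in STZ (135 genes) and 2.14% lower (68 genes). Genes of the rule and the gate were not left out between the libraries, and Jun is among the 68 lower genes. The median of all genes was 0.04 on the log2 scale. In the low cells 6.76% of 3536 genes passed, 3.62% higher and 3.14% lower. Values of the low cells are given beside those of the high cells; whether the STZ difference itself differs between the groups was not tested.

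The metallothioneins, small cysteine-rich proteins that bind zinc and copper, gave the largest ratio. Mt2 was at 72.1 CPM in control and 427 in STZ high cells, 5.92-fold (5.2 to 6.75) higher, and Mt1 at 731 and 2379, 3.26-fold (3.12 to 3.40) higher. Mt3, the neural form, was 1.76-fold (1.60 to 1.92) higher. The low cells gave nearly the same ratios, 5.58-fold (4.77 to 6.56) for Mt2 and 3.34-fold (3.17 to 3.53) for Mt1. In the band from 1% to 2% Mt2 was 5.65-fold (4.72 to 6.82) and Mt1 3.03-fold (2.85 to 3.21) higher. Mt1 lies at chr8:94179082-94180327 and Mt2 beside it at chr8:94172664-94173568. Mt2 had a UMI in 186 of 621 control and 423 of 670 STZ high cells, which spreads the difference over many cells. In the 52 STZ cells at 2% or more, where it stood at 868 CPM, 5 cells held 50% or more of the Mt2 UMIs. Mt3 was under 1.5-fold in 2 settings, at 0.36 on the log2 scale when thinned to 800 UMIs and 0.57 with at most 10% mitochondrial UMIs.

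Both cold-inducible RNA-binding protein genes of the list were higher. Cirbp was at 234 CPM in control and 610.3 in STZ high cells, 2.61-fold (2.41 to 2.83), and Rbm3 at 176 and 328, 1.86-fold (1.69 to 2.05). In the low cells the ratios were 3.16-fold (2.88 to 3.48) and 2.09-fold (1.85 to 2.35). The 9 splicing genes of the same list held 0 higher and 2 lower, Clk1 at 1.64-fold (1.46 to 1.84) and Tra2a at 1.55-fold (1.39 to 1.72). Clk1 was under 1.5-fold, at -0.38 on the log2 scale, with at most 10% mitochondrial UMIs.

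Cholesterol synthesis genes, targets of the transcription factor SREBP2, were lower in STZ. Of 16 listed, 7 were measured and 5 passed, with a median log2 ratio of -0.80 against 0.04 for all genes; in the low cells 2 of 9 passed, with a median of -0.37. Insig1, which holds SREBP in the endoplasmic reticulum and is itself an SREBP target, was at 115 CPM in control and 58.2 in STZ high cells, 1.97-fold (1.66 to 2.35) lower. Idi1 was 1.90-fold (1.60 to 2.26), Hmgcs1 1.79-fold (1.54 to 2.09) and Msmo1 1.74-fold (1.48 to 2.04) lower. With at most 10% mitochondrial UMIs, Hmgcs1 and Msmo1 were at -0.54 and -0.57 on the log2 scale, just under 1.5-fold. In the high control cells Insig1 climbed with the share of early genes, from 83.9 CPM between the division and 1% to 144 at 2% or more; in STZ these were 58.5 and 69.3.

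Vegfa, which encodes the main angiogenic and vascular permeability factor of the retina, was at 313 CPM in control and 144 in STZ high cells, 2.17-fold (1.95 to 2.42) lower. The low cells had 376 and 149.5 CPM, 2.51-fold (2.22 to 2.85) lower, so both STZ groups lay under both control groups. In the band from 1% to 2% it was 1.92-fold (1.66 to 2.23) lower. The other 19 growth factor and cytokine genes in the table included 1 measured gene, Inhba, which did not pass.

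Among early genes, 4 transcription factors were lower in STZ and 0 of 13 higher. Klf4 was 1.78-fold (1.62 to 1.95) lower, Klf6 1.72-fold (1.56 to 1.91), Id1 1.81-fold (1.68 to 1.95) and Id4 2.01-fold (1.66 to 2.43). Of 12 other early response genes, Btg1 at 1.81-fold (1.70 to 1.93), Rhob at 1.73-fold (1.53 to 1.95) and Gadd45b at 1.67-fold (1.37 to 2.04) were lower, and Gadd45g at 1.64-fold (1.44 to 1.87) was higher. Of 5 MAP kinase inhibitors 2 were lower, Dusp6 at 1.78-fold (1.59 to 1.99) and Errfi1 at 1.99-fold (1.62 to 2.45), while Dusp1 was at 1168 and 858 CPM, under 1.5-fold. Of 7 mRNA decay and cytokine feedback genes 0 passed, and 4 were above 1: Zfp36 was at 432 and 593 CPM, 1.37-fold (1.28 to 1.47) higher, and Socs3 at 1.22-fold (1.10 to 1.35). In the low cells 1 of 7 early transcription factors was lower and 0 higher, with a median log2 ratio of -0.09 against -0.31 in the high cells. The medians of the other early response genes were 0.02 and -0.38, and of the MAP kinase inhibitors -0.49 and -0.45. The STZ high cells had a lower share of the 7 genes, so the band from 1% to 2% was compared as well. Inside that band the STZ cells still lay toward lower shares. There Klf4 was 1.59-fold (1.41 to 1.80), Id1 1.70-fold (1.54 to 1.88), Id4 1.99-fold (1.54 to 2.58) and Btg1 1.74-fold (1.61 to 1.89) lower, and Gadd45b 2.05-fold (1.54 to 2.74). Klf6 at 1.40-fold (1.23 to 1.60), Rhob at 1.41-fold (1.21 to 1.65) and Dusp6 at 1.49-fold (1.29 to 1.73) were under 1.5-fold. Zfp36 at 1.59-fold (1.46 to 1.74) and Mcl1 at 1.52-fold (1.33 to 1.74) were higher, and Gadd45g at 1.37-fold (1.15 to 1.64) was under 1.5-fold. Cebpb at 1.31-fold (1.12 to 1.54) and Cebpd at 1.18-fold (1.11 to 1.26) also lay above control, under 1.5-fold. Between the division and 1% the directions were mixed. Klf4 at 1.07-fold (0.827 to 1.38), Gadd45b at 1.35-fold (0.806 to 2.32) and Dusp1 at 1.79-fold (1.52 to 2.11) were higher in STZ. Cebpb at 1.99-fold (1.42 to 2.81), Cebpd at 2.25-fold (1.96 to 2.60), Gadd45g at 2.28-fold (1.56 to 3.39) and Mcl1 at 1.69-fold (1.28 to 2.24) were higher too. Btg1 at 1.36-fold (1.18 to 1.58), Dusp6 at 1.56-fold (1.16 to 2.10) and Errfi1 at 2.04-fold (1.25 to 3.35) were lower there. Klf6 at 1.34-fold (0.987 to 1.82), Id1 at 1.17-fold (0.966 to 1.42) and Id4 at 1.34-fold (0.919 to 1.96) were lower with intervals that include 1.

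Part of these calls did not hold when the gate was limited to cells with at most 10% mitochondrial UMIs. Those cells were divided again at their own median. The setting thus changes both the cells and the division, and the part of each was not tested. In the high group of this setting Klf4 was at -0.42, Klf6 at -0.51, Id1 at -0.58, Btg1 at -0.52 and Errfi1 at -0.50 on the log2 scale. All of these were lower in STZ and under 1.5-fold, and Gadd45b at 0.37 was on the other side. Errfi1 was at -0.05 when thinned. Jun, the one gene of the rule past 1.5-fold, was at -0.59 over all high cells and at -0.36 in the band from 1% to 2%.

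The other genes named by rank held genes of signalling, adhesion, transport and chromatin. Higher were Fam171b at 2.74-fold (2.48 to 3.03), the receptor gene Notch2 at 2.32-fold (1.98 to 2.73), Pnmal2 at 2.17-fold (1.76 to 2.68), Samd8 at 2.10-fold (1.72 to 2.57), the adhesion gene Cxadr at 2.10-fold (1.70 to 2.59), Arl4d at 2.08-fold (1.81 to 2.39) and the chromatin gene Hmgb2 at 2.05-fold (1.77 to 2.38). Notch2, Samd8 and Cxadr were under 1.5-fold in the low cells, at 0.30, 0.46 and 0.35 on the log2 scale. Cxadr was at 0.40 in the high cells thinned to 800 UMIs. Lower was Slc38a2, an amino acid transporter gene induced by ATF4, at 259 CPM in control and 94.6 in STZ high cells, 2.73-fold (2.40 to 3.12), and 1.57-fold (1.32 to 1.87) in the low cells. The histone genes Hist1h4d at 3.06-fold (2.48 to 3.81) and Hist1h2ac at 2.71-fold (2.17 to 3.40) were lower; many histone mRNAs lack the poly(A) tail that this assay captures. Hexim1, an inhibitor of transcription elongation, was 2.61-fold (2.14 to 3.20) lower, the phosphodiesterase gene Pde10a 2.60-fold (2.07 to 3.29), the transporter gene Slco1c1 2.10-fold (1.68 to 2.63) and Zkscan3 2.04-fold (1.70 to 2.46). The choline kinase gene Chka was 2.19-fold (1.74 to 2.77) lower in the high cells and 1.08-fold (0.805 to 1.44) higher in the low cells. Dnajb1 was 2.07-fold (1.75 to 2.45) lower.

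Transport genes of the Müller programme did not pass between the libraries. Of 22 transport and metabolism genes measured in the high cells 0 passed, with a median log2 ratio of 0.01. The gate genes were not left out of this comparison. Glul, at 10914 CPM in control and 11770.2 in STZ, and Rlbp1, at 3193 and 2960.0, helped choose the cells. Their levels therefore only describe the choice. Kcnj10, which took no part in it, was at 203 and 238, and Acsl3 at 1896 and 2806. Of 17 transcription factors and cell cycle genes 1 was higher and 2 were lower, Sox4 at 1.58-fold (1.43 to 1.75) and Ccnd1, the G1 cyclin, at 1.77-fold (1.56 to 2.02). Of 11 heat shock genes Dnajb1 alone passed, and 0 of 13 genes of endoplasmic reticulum stress passed, with a median of -0.31. In the antioxidant list Txnip, a glucose-responsive inhibitor of thioredoxin, was at 44.5 and 78.2 CPM, 1.76-fold (1.44 to 2.14) higher, and the glutathione transferase gene Gstm1 1.65-fold (1.48 to 1.85) higher. Of 17 glycolysis genes Hk1 passed, at 1.51-fold (1.25 to 1.83), and it was under 1.5-fold in 4 of the alternatives.

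**Figure D5:**
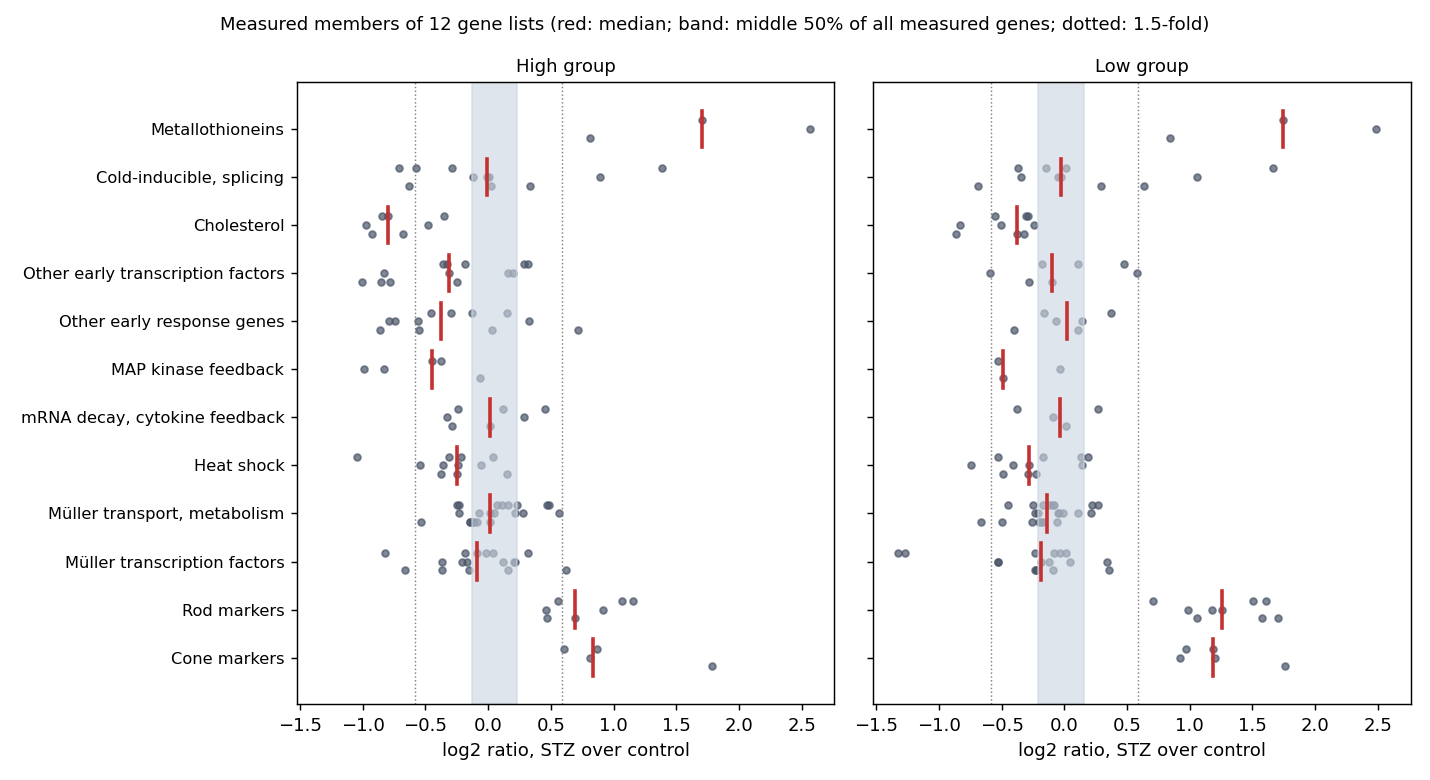
Log2 ratio of STZ over control for the measured members of 12 gene lists (1 point a gene, red line the median) in the high group (left) and low group (right); the band is the middle 50% of all measured genes and dotted lines mark 1.5-fold. The metallothioneins lie to the right and the cholesterol genes to the left in both panels, and rod and cone markers lie to the right.

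Reactive gliosis, in which Müller glia take up intermediate filaments and acute-phase genes, was seen in few cells. Gfap, its classical marker, had 4 UMIs in 4 control and 74 UMIs in 15 STZ high cells, and 85 and 53 UMIs in 9 and 12 low cells. Over all cells these came to 1.01, 23.4, 27.7 and 24.2 CPM, under the 50 CPM set as the minimum. In the STZ high cells 3 cells held 50% or more of the Gfap UMIs and 1 cell held 19. Lcn2, an acute-phase gene, had 7 and 76 UMIs in the high cells, and 1 STZ cell held 42 of them. The 15 STZ cells with Gfap had 2059.6 CPM of Mt2 and 682 of Lcn2, against 386 and 7.78 in the other 655. The cell with 42 Lcn2 UMIs was among them, and it held most of the 52 Lcn2 UMIs of these 15 cells. Without those cells Mt2 was still above the control level of 72.1 CPM. Of the genes of the list that were measured, Vim was at 1039.5 and 1082 CPM, and Cd44 at 47.8 and 74.1, 1.55-fold (1.27 to 1.89) higher but at 0.17 on the log2 scale when thinned. Cdkn1a, a p53 target that arrests the cell cycle, was under the minimum at 5.82 and 40.8 CPM. It had 23 UMIs in 18 control cells and 129 in 81 STZ cells, 7.01-fold (4.48 to 11.5) higher, and 12.4-fold (5.32 to 35.2) in the low cells from 6 and 53 UMIs.

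Markers of other cell types passed in the same comparison. Of 7 rod markers measured in the high cells 4 were higher in STZ, with a median log2 ratio of 0.69, 4 of 4 cone markers with 0.84, and 2 of 2 bipolar markers. Pcp2, a bipolar marker, was at 101 CPM in control and 292 in STZ high cells. In the low cells 9 of 9 rod markers were higher in STZ, with a median of 1.25. Flt1, listed as an endothelial gene, was at 558 and 934 CPM, and all 5 endothelial markers together came to 568 and 975 CPM, so that Flt1 held nearly all of the sum. Flt1 was under 1.5-fold when thinned, at 0.57 on the log2 scale. In cells outside the gate, over both libraries, Mt2 was at 147 CPM, Mt1 at 784, Cirbp at 622, Rbm3 at 301, Insig1 at 18.1 and Vegfa at 115. The STZ high cells were above this level of both libraries together for Mt1 and Mt2 and near it for Cirbp and Rbm3. The outside level of these genes in STZ alone was not computed. Over all high cells Mt2 was at 2.56, Cirbp at 1.38, Insig1 at -0.98 and Vegfa at -1.12 on the log2 scale. Without the cells richest in markers of other classes they were at 2.63, 1.34, -0.98 and -1.12. Rod markers took no part in that removal, so these values cannot show the part of rod RNA, which was not tested.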

How the data were processed

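Retinal cells were captured with the 10x Genomics Chromium 3' version 3 chemistry, 1 library per group. The authors deposited a table of UMI counts for 17087 genes and 19562 cells, whose column endings name the library. Cell Ranger 3.0.1, Seurat 3.0 and the mm10 build are named in the submitters' processing notes, without settings. No cell in the table has more than 2999 genes. From the deposited counts, UMIs were summed per library and per high or low group with Python 3.11.15, numpy 2.4.6 and scipy 1.17.1, and given as CPM. Ratios carry 95% conditional-binomial intervals, shares Clopper-Pearson intervals and levels Poisson intervals, all for counting error alone. The high groups held 3950799 control and 3159164 STZ UMIs. A gene counted as measured at 50 CPM and 50 UMIs over the groups compared, and was called at 1.5-fold; a count of 0 was set to 3. No test between libraries is possible with 1 library per group.

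Genes were named by rank as the 10 with the largest ratio in each direction, for high against low cells by the smaller ratio of the 2 libraries. They needed a gene symbol other than a clone name and at least 0.5 times their level outside the gate. Rule and gate genes and up to 6 members of each of 33 lists were added; Cdkn1a, Lcn2 and Tra2a were described after their values were seen. The members and the lists were chosen with earlier results of these data known. No doublet caller was run. As an alternative, the 10% of gate cells of each library with the most markers of other classes were removed. That score left out the rod and astrocyte markers and included the endothelial ones, with Flt1. Other alternatives were thinning, stricter gates, medians within each library, means over cells, another denominator and a lower filter. After thinning, a stricter gate or the removal of marker-rich cells, the gate cells were divided again at their new median. The calculations were checked on simulated counts. Some genes counted in the lists are not reported here by name.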

Additional observations from a re-analysis of the deposited data

How the results depend on the processing

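Counts of genes past 1.5-fold depended on depth and on the filter for low levels. Thinned to 800 UMIs per cell, the STZ against control counts in the high cells moved from 135 higher and 68 lower to 345 and 205, and with a filter of 10 CPM and 20 UMIs to 751 and 315. Weighting cells equally gave 116 lower. For high against low cells in control, 96 higher and 247 lower became 168 and 527 when thinned and 244 and 1074 with the lower filter. In STZ, 71 higher and 109 lower became 156 and 233 when thinned, 239 and 594 with the lower filter, and 113 and 171 with at most 10% mitochondrial UMIs. Thinning leaves fewer UMIs per gene and the lower filter admits genes with few UMIs, and the cause of the other moves was not tested. The share of gate cells in the high group was 52.7% in control and 56.9% in STZ when thinned, and 45.7% and 55.5% with at most 10% mitochondrial UMIs, against 48.7% and 51.3%.

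A turn of direction was counted only where the first value was at 1.5-fold or more. Of 1614 recomputed gene ratios, 1344 stayed within their counting interval, 269 moved beyond it and 1 turned direction. That 1 was Gadd45b for STZ against control in the high cells, at -0.74 on the log2 scale and at 0.37 with at most 10% mitochondrial UMIs; the cause was not tested. Of 737 recomputed list medians 580 kept their value within the spread used and 157 moved. Of the medians first at 1.5-fold or more, 0 turned direction. The comparison of cells at 1% to 2% of the 7 genes was chosen after the data were seen and gave 162 genes higher and 79 lower in STZ. No paired analysis was possible because each group is 1 library of pooled retinas. No replicate could be left out for the same reason. Depth limits genes under 50 CPM, among them most cytokine genes.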
